A study of Arabidopsis thaliana with 18 samples.

Results

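The ozone response of rosettes of Cvi-0, an accession of Arabidopsis thaliana that is sensitive to ozone, was read from 6 libraries of the 18 in the series. They were chosen by their labels as the 3 Cvi-0 ozone libraries, exposed to 350 ppb ozone for 2 h, and the 3 Cvi-0 control libraries, which had no ozone. Plants were 3 weeks old, and each library held RNA from a pool of 10 to 15 whole rosettes, so that plants within a pool cannot be told apart. The other 12 libraries came from Col-S and Col-0, with the same ages, pools and treatments. Col-S is a near-isogenic line, Col-0 in most of its genome but sensitive to ozone like Cvi-0, and Col-0 is the accession of the reference genome. No allele or agent beyond accession and ozone is given in the labels. Of 32678 genes listed, 20622 had enough counts to be tested. The labels call the 3 libraries of a group biological repeats.

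Ozone enters leaves through stomata and breaks down in the cell wall space into reactive oxygen, which the cell reads much as it reads an attack by a pathogen. Known early events are a rise of calcium in the cytosol, kinase signalling, and the hormones ethylene, salicylic acid and jasmonate. Sensitive accessions go on to form lesions of dead cells, and an exposed leaf is known to lower its photosynthesis.

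The 3 ozone libraries held 14905841 to 18339372 counts and the 3 control libraries 15392332 to 26171613. A count was found for 22926 to 23350 genes in the ozone libraries and for 22187 to 22928 in the control libraries. The 100 most abundant genes of a library took 19.1%, 19.8% and 18.4% of the counts in the ozone libraries, against 33.1%, 31.5% and 30.7% in the control libraries. Counts were therefore spread over more genes after ozone, and the groups did not overlap. Between libraries of the same group, log2 CPM correlated across genes at 0.985 to 0.990, and between ozone and control libraries at 0.747 to 0.776. Genes are not independent replicates, and these values describe the libraries. Levels below are CPM, counts scaled to the size of the library with TMM factors, which puts the libraries on a common scale.

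The change was broad and, on the TMM scale, went in both directions in near equal number. A gene was called where its Benjamini-Hochberg adjusted p in edgeR's quasi-likelihood test was under 0.05. In all, 70.6% of tested genes were called. Of the tested genes, 7112 were higher (34.5%) and 7438 lower (36.1%) in ozone than in control rosettes. The called genes that changed at least 2-fold were 4755 higher (23.1%) and 3479 lower (16.9%). The rises were the steeper ones: 1215 genes rose at least 16-fold, and 801 fell at least 4-fold. The median log2 fold change over all tested genes was -0.05, with quartiles of -0.74 and 0.92. TMM factors centre the log ratios between libraries near 0, so this median and the near equal split follow in part from the scaling. With another scaling, DESeq2 size factors, 7414 genes were higher and 7008 lower. A shift of all genes alike cannot be seen in such scaled counts. The counts of each gene group below are to be read against these shares.

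**Figure D1:**
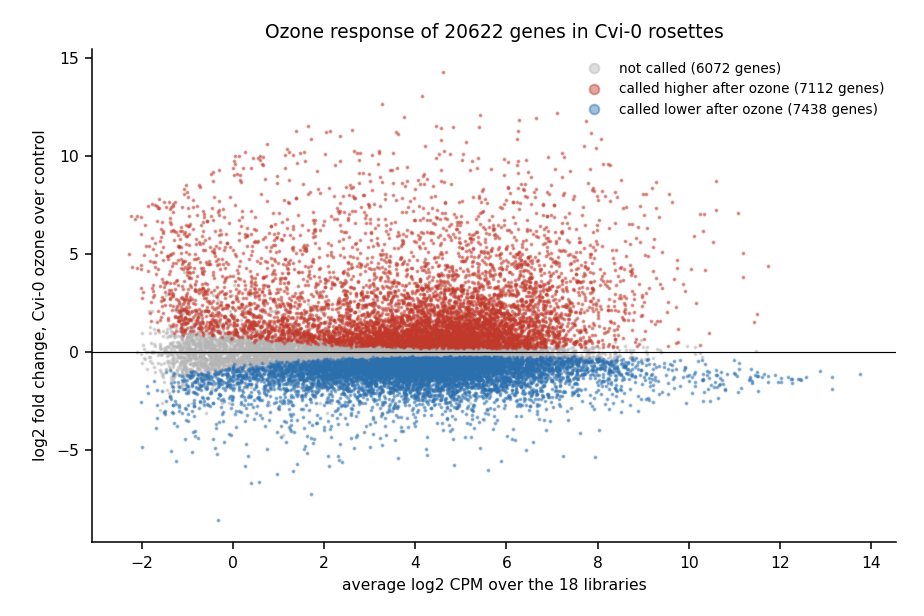
Log2 fold change of Cvi-0 ozone over control libraries (y axis) against the average log2 CPM over the 18 libraries (x axis, log scale), with 1 point for each of 20622 genes. The 7112 genes called higher reach further from 0 than the 7438 called lower, and 6072 genes were not called.

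Genes are given here by their gain or loss in mean CPM. PEN3 (AT1G59870, chromosome 1, 22034506 to 22040038), an ABC transporter of the plasma membrane that limits entry of fungi, had 6630, 6485 and 6998 CPM in ozone libraries, against 326.4, 225.5 and 419.6 CPM in control libraries. Its log2 fold change was 4.37 (SE 0.21, adjusted p = 1.3e-11). After ozone its reads were about as many as those of RBCS1A (AT1G67090), a small subunit gene of Rubisco, although CPM are not corrected for length. RBCS1A itself had 6623, 8721 and 7328 CPM in ozone libraries and 16334, 16538 and 16555 CPM in controls (log2 fold change -1.12, SE 0.12, adjusted p = 3.5e-07). RCA (AT2G39730), the activase of Rubisco, had 3249, 3658 and 3418 CPM in ozone libraries and 13615, 12330 and 11501 CPM in controls. It lost the most reads of all called genes.

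NADP-ME2 (AT5G11670), a malic enzyme that makes NADPH in the cytosol, had 5770, 5066 and 5252 CPM in ozone libraries against 167.0, 116.8 and 198.2 CPM in controls. ABCG40 (AT1G15520), an ABC transporter that can carry abscisic acid, had 4226, 3384 and 4030 CPM in ozone libraries against 6.94, 10.2 and 10.1 CPM in controls (log2 fold change 8.73, SE 0.44, adjusted p = 2.4e-11). AT1G22410, annotated as a class II DAHP synthetase, the entry enzyme of the shikimate pathway, had 3012, 3108 and 2220 CPM in ozone libraries against 129.7, 156.5 and 148.7 CPM in controls. UBQ10 (AT4G05320), a polyubiquitin gene often used as a reference, had 3983, 5187 and 4760 CPM in ozone libraries against 1349, 1184 and 1123 CPM in controls (log2 fold change 1.93, SE 0.13, adjusted p = 7.6e-10). The other genes with the 10 largest gains were GSTF6, AT3G09440, Hsp70-2, AT5G35735 and TCH3, with log2 fold changes of 7.11, 3.84, 7.26, 7.04 and 5.62. AT3G09440 and Hsp70-2 are annotated as chaperones of the HSP70 family, and TCH3 codes for a calmodulin-like protein.

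The remaining large losses were light harvesting and Rubisco genes. CAB1, CAB3, CAB2, LHCB3, LHB1B2 and LHCA4, which bind chlorophyll in the antennae, had log2 fold changes of -1.26, -1.38, -1.25, -1.41, -1.55 and -1.37. RBCS2B and RBCS3B, which like RBCS1A code for the small subunit of Rubisco, had -1.36 and -0.95. CAB1, CAB2 and CAB3 are near-identical copies, as are RBCS2B and RBCS3B, so the split of reads within each set is uncertain. LHCB3, LHB1B2 and LHCA4 each overlap another gene. In bulk tissue, fewer cells of a type and less RNA per cell cannot be told apart.

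**Figure D2:**
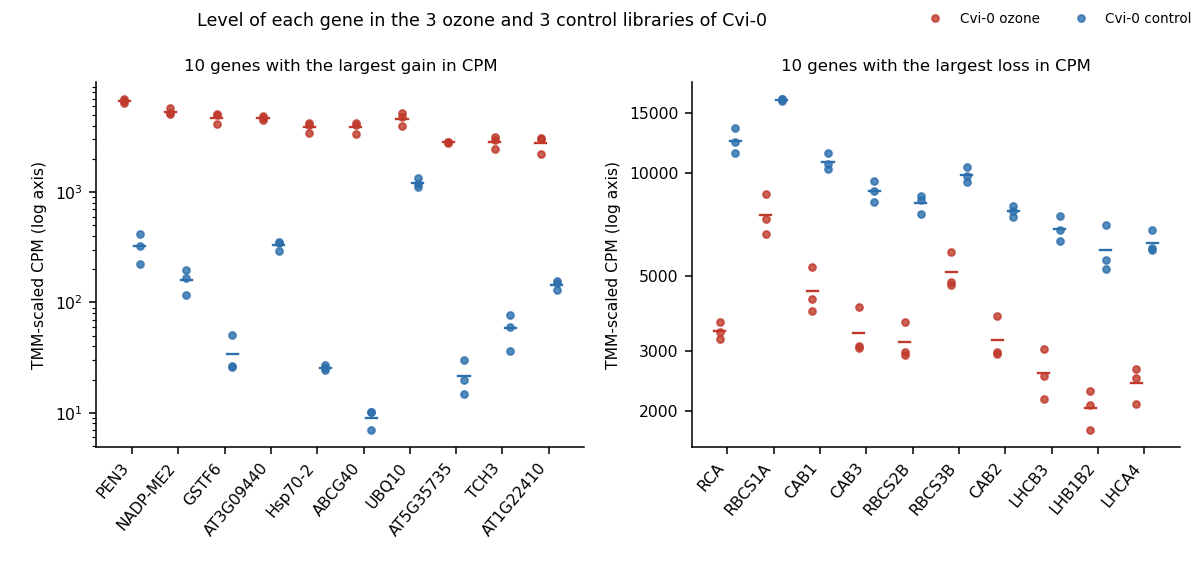
TMM-scaled CPM (y axis, log scale) of the 10 genes with the largest gain (left) and the 10 with the largest loss (right), with 1 point for each library, ozone to the left of control. In each of the 20 genes the 3 ozone values lie apart from the 3 control values.

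In 258 tested genes the 3 control libraries had no count, and 122 of these were called higher. In 139 the 3 ozone libraries had no count, and 9 of these were called lower. These counts include 102 genes with no count in any of the 6 Cvi-0 libraries, and such genes passed the filter through counts in another group, so the counts are a description only. A count of 0 allows up to 3 counts, which is 0.0616 CPM over the ozone libraries and 0.0477 CPM over the control libraries. AT1G13480, annotated with a domain of unknown function, had 118.3, 126.3 and 136.7 CPM in ozone libraries and 0 in all 3 control libraries. It was at least 2650.3-fold higher. AT2G14290, also with a domain of unknown function, had 27, 23.7 and 26 CPM in ozone libraries and 0 in controls, at least 535.3-fold higher. FMO1 (AT1G19250), a monooxygenase that makes the signal of systemic resistance, had 49.7, 69.5 and 55.8 CPM in ozone libraries against 0.0637, 0.0728 and 0 CPM in controls. Its ratio was 1220.8 (95% interval 417.3 to 5923.3, counting error only), chosen here after its values were seen. AT3G46080, a C2H2 zinc finger gene, had 404.3, 366.9 and 424.9 CPM in ozone libraries against 0.0637, 0.0364 and 0.204 CPM in controls. BHLH92 (AT5G43650, chromosome 5, 17533193 to 17534796), a transcription factor gene, had 335.6, 357.7 and 400.7 CPM in ozone libraries against 0.191, 0.0728 and 0.0509 CPM in controls. In all of these the gene was close to silent without ozone. Fitted log2 fold changes of such genes, 11.80 for BHLH92 and 11.93 for AT3G46080, depend on a small prior count.

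The falls given here are among the 8 lowest fold changes of called genes whose groups did not overlap, once genes averaging under 3 on the log2 CPM scale were set aside. FRO7 (AT5G49740), a ferric reductase of the chloroplast, had 6.21, 5.0 and 4.89 CPM in ozone libraries against 252.2, 185.9 and 190.7 CPM in controls (log2 fold change -5.28, SE 0.64, adjusted p = 1.0e-06). NCED4 (AT4G19170), which cleaves carotenoids, had 13.7, 15.6 and 8.82 CPM in ozone libraries against 640.4, 416.1 and 464.1 CPM in controls. DES1 (AT5G28030), a cysteine desulfhydrase, had 1.2, 1.99 and 0.827 CPM in ozone libraries against 51.1, 47.3 and 53.7 CPM in controls. In each of them every ozone value lay far below every control value. AT2G27420, CYP706A6, AT5G24155 and SQP1, a cysteine proteinase, a cytochrome P450 and 2 oxidoreductases of neighbouring loci, had log2 fold changes of -5.73, -5.55, -5.37 and -4.98. Among genes with 1 to 3 counts after ozone, CER4 (AT4G33790), a reductase that makes wax alcohols, had 2 counts over the ozone libraries and 309 over the controls, a ratio of 119.7 in favour of the control (95% interval 32.9 to 992.7), chosen here after its values were seen. GolS3, a galactinol synthase gene, had 3 and 208 counts, a ratio of 53.7 in favour of the control (18.1 to 262.5).

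The promoters of the risen genes held some short motifs more often than others did. The 250 bases before the RefSeq start of the gene (build TAIR10.1) were searched on both strands, in 20601 of the 20622 tested genes. The W box, the site of WRKY transcription factors, was searched as TTGACC or TTGACT. The CGCG box, the site of calmodulin-binding CAMTA factors, was searched as ACGCGT or ACGCGG. Forms of the box that begin with CCGCGT or with CCGCGG were counted too. The I box, known from light-regulated genes, was searched as GATAAG, and the heat shock element in both of its phases. The promoters below are shown because their genes are among the steepest risers, or are a Rubisco gene that fell, and hold the motif in capitals. They were picked after the matches were seen, and each runs from 5′ to 3′ toward the gene.
AT1G13480, W box, chr1:4624082-4624331, minus strand: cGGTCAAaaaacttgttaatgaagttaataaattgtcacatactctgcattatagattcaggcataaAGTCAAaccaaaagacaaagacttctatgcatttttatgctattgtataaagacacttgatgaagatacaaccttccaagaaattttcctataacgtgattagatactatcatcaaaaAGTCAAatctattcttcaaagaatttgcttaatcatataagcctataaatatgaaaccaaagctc
AT2G14290, W box, chr2:6058621-6058870, minus strand: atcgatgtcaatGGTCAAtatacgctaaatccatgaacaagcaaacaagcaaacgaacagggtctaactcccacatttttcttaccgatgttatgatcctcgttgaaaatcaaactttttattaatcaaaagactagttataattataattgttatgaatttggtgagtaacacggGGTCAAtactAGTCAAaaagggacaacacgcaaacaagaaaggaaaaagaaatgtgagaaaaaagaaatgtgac
BHLH92, W box, chr5:17534797-17535046, minus strand: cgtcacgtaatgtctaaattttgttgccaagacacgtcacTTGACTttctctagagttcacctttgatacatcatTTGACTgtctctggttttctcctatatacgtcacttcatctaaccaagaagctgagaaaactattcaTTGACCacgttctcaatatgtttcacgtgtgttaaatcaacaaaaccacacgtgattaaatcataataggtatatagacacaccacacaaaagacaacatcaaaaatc
AT3G46080, CGCG box, chr3:16923300-16923549, minus strand: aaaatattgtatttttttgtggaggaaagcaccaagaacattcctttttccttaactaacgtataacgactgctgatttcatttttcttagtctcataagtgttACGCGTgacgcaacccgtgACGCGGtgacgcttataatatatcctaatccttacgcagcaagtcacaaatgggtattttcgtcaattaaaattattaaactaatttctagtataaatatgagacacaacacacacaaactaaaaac
AT1G53540, heat shock element, chr1:19980049-19980298, plus strand: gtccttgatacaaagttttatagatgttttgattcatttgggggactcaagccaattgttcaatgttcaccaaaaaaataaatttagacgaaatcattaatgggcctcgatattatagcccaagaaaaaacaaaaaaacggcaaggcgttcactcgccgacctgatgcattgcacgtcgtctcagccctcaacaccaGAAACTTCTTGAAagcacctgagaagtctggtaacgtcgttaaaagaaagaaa
RBCS2B, I box, chr5:15382072-15382321, minus strand: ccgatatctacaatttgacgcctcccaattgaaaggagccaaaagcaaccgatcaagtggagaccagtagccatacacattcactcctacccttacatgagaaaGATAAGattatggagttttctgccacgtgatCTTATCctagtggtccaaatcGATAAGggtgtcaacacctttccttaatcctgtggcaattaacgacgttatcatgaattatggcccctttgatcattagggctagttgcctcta

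The first 3 of these promoters held 3 W boxes each. In AT1G13480 they began 249, 183 and 65 bases before the start, and in AT2G14290 they began 238, 74 and 64 bases before it. The promoter of AT3G46080 held 2 CGCG boxes and RBCS2B held 3 I boxes. Distances are counted from the RefSeq start, which for some genes lies outside the gene ends in the deposited files. AT1G53540, a small heat shock gene annotated as an HSP20-like chaperone, had 33.2, 43.0 and 88.2 CPM in ozone libraries against 0.127, 0.291 and 0.153 CPM in controls.

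A W box was found in 37.9% of the 4751 promoters of genes that rose at least 2-fold and in 23.1% of the 3476 of genes that fell at least 2-fold, against 28.4% of all tested. Among the 1213 promoters of genes that rose at least 16-fold the share was 46.3%. The CGCG box stood in 8.0% of promoters of risen and 2.27% of fallen genes, against 4.11% of all. It stood in 11.5% of those that rose at least 16-fold and in 1.12% of the 801 that fell at least 4-fold. Heat shock elements were rare, at 0.800% of risen, 0.259% of fallen and 0.408% of all promoters. The shares of the G box (CACGTG), at 8.44%, 7.19% and 7.26%, and of the I box, at 12.5%, 13.6% and 12.3%, were close to one another. The TCP site II (TGGGCC), common in genes of ribosomes and mitochondria, was less frequent in both directions, at 11.6% and 12.3%, against 16.2% of all and 17.3% of genes not called. A match is a description of letters and says nothing on whether a factor was bound. The groups also differed in level, with a median control CPM of 5.07 in risen and 20.2 in fallen genes.

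**Figure D3:**
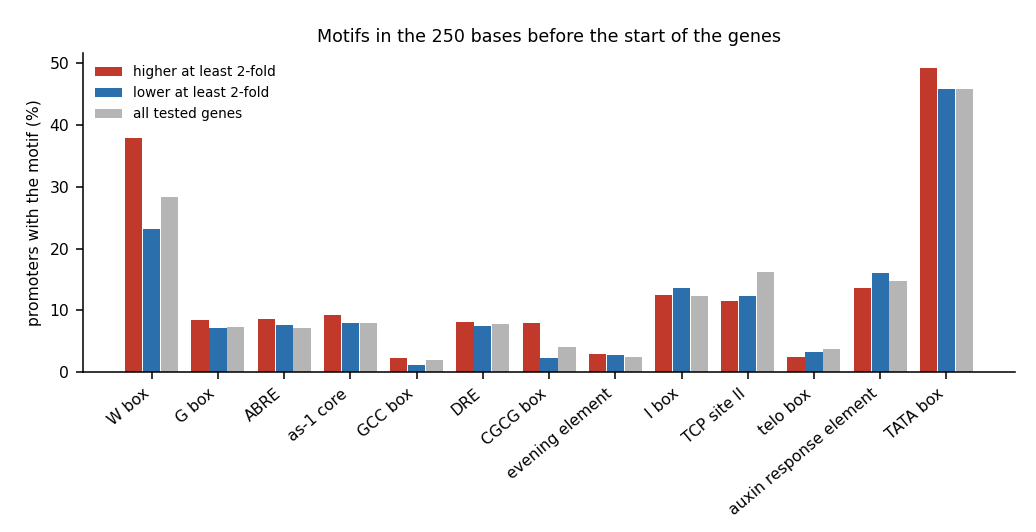
Percent of promoters (y axis) that hold each motif (x axis) in genes that rose at least 2-fold in Cvi-0 ozone libraries, in genes that fell at least 2-fold, and in all tested genes. The W box is at 37.9%, 23.1% and 28.4%, the CGCG box at 8.0%, 2.27% and 4.11%, and motifs found in under 1% of all promoters are left out.

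The genes that rose or fell most had fewer exons than the tested genes at large, though most had more than 1. A single exon was annotated in 30.3% of the genes that rose at least 16-fold and in 25.3% of those that fell at least 4-fold, against 15.3% of all tested genes. Their median numbers of exons were 2, 3 and 5, and their median spans 1584, 1815 and 2192 bases. The genes that rose at least 16-fold had a median control CPM of 0.458, against 11.8 of all tested genes. Genes so low in controls can pass the filter through their ozone counts, and the part of level in these shares was not tested. By number of exons, 973 of 3143 genes with 1 exon rose at least 2-fold (31%), and 535 of 3428 genes with more than 10 exons (15.6%). Genes were also grouped by their level in control rosettes. Of 104 genes with a control mean of 1000 CPM or more, 78 fell at least 2-fold (75%) and 2 rose, with a median log2 fold change of -1.28. Of 2905 genes under 1 CPM, 1410 rose at least 2-fold (48.5%) and 165 fell (5.68%). This grouping uses the control value that is also in the fold change, and the filter keeps genes low in controls that are high elsewhere, so it leans toward this pattern by construction and is not read as a result.

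The genes were searched for runs of neighbouring tested genes that all rose at least 2-fold, and some of the longest are given here. A run ends at the first gene that did not rise so, and the shared rise of its members is therefore set by the rule. Of all tested genes, 23.1% rose at least 2-fold, and whether the runs are longer than this share would give was not tested. On chromosome 2, between 560864 and 623344, 12 tested genes in a row rose at least 2-fold, with log2 fold changes of 1.45 to 12.63. Most are PP2-B genes, which code for phloem lectin-like F-box proteins. PP2-B1 had 218.8, 212.9 and 293.2 CPM in ozone libraries against 7.58, 7.90 and 7.23 CPM in controls, and PP2-B7 had 18.9, 18.8 and 19.8 CPM against 0, 0.0364 and 0 CPM. On chromosome 1, between 10892570 and 10949458, a run of 11 genes rose by 1.11 to 9.87, led by berberine bridge-like oxidoreductases. AT1G30700 of that run had 69.7, 106.0 and 66.2 CPM in ozone libraries against 0.509, 1.09 and 0.713 CPM in controls. A further 11 genes around the GSTU1 to GSTU7 cluster of glutathione transferases (chromosome 2, 12613081 to 12633805) rose by 2.15 to 10.79. The cluster of CYP71B cytochrome P450 genes on chromosome 3 (9568280 to 9599959) gave 8 genes in a row, at 1.42 to 5.34. In that cluster CYP71B22 had 40.7, 46.8 and 34.5 CPM in ozone libraries against 0.891, 0.619 and 1.73 CPM in controls. The runs also hold genes of other families, such as TOM3 and PSKR1 in the run with the PP2-B genes. Members of the same family resemble one another, so that the split of reads between them is uncertain.

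The rest of the account goes by function, over 42 gene lists. Pattern recognition receptors and their kinases bind fragments of microbes or damaged walls outside the cell. Of 35 tested, 30 were higher, 4 lower and 1 not called, with a median log2 fold change of 3.02 against -0.05 over all genes. BAK1 (AT4G33430), the co-receptor of many of them, had 267.4, 290.1 and 273.2 CPM in ozone libraries against 25.7, 27.7 and 26.4 CPM in controls (log2 fold change 3.38, SE 0.12, adjusted p = 1.1e-12). BIK1 (AT2G39660), the kinase that BAK1 complexes pass the signal to, had 171.6, 181.0 and 183.3 CPM against 6.37, 7.68 and 9.72 CPM in controls. WAKL10 (AT1G79680), a wall-associated kinase-like gene, had 195.6, 168.5 and 178.6 CPM against 0.637, 0.619 and 0.713 CPM in controls. The list fell in AT1G27190, a leucine-rich repeat kinase, at -1.01, and in LYM1, which binds peptidoglycan and overlaps another gene, at -0.89.

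Intracellular immune receptors of the NLR type rose less evenly. Of 32 tested, 22 were higher, 3 lower and 7 not called, with a median of 1.23. WRR4 (AT1G56510), a receptor known for resistance to white rust, had 737.6, 736.8 and 711.9 CPM in ozone libraries against 12.9, 10.7 and 15.6 CPM in controls (log2 fold change 5.80, SE 0.20, adjusted p = 8.0e-13). AT1G66090, a TIR-NBS gene, had 291.0, 280.4 and 283.2 CPM against 0.764, 0.764 and 1.48 CPM in controls. RPP1 and LAZ5, which are receptors of the same class, rose by 2.73 and 2.39. RLM3 (AT4G16990), a TIR gene of resistance to fungi, went the other way with 67.0, 63.4 and 52.1 CPM in ozone libraries against 153.5, 145.9 and 153.4 CPM in controls, a change of -1.31 (SE 0.13, adjusted p = 1.0e-07). TAO1 also fell, at -1.28.

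Calcium transporters move the ion and decoders read it. Of 42 tested, 28 were higher, 10 lower and 4 not called, with a median of 2.12. ACA2 (AT4G37640), a calcium pump of the endoplasmic reticulum, had 827.8, 884.0 and 992.6 CPM in ozone libraries against 43.4, 40.9 and 38.7 CPM in controls. AT3G63380, annotated as a calcium ATPase, had 287.0, 266.6 and 232.4 CPM against 2.74, 2.77 and 3.31 CPM in controls. The calcium-dependent kinases CPK1 and CPK28 rose by 2.17 and 3.59. The channel gene CNGC4 (AT5G54250) had 12.7, 13.1 and 11.9 CPM in ozone libraries against 92.8, 92.4 and 83.2 CPM in controls, a change of -2.83 (SE 0.22, adjusted p = 3.7e-09), and GLR3.3, a glutamate receptor-like channel, fell by 1.15 on the log2 scale. These members were named by rule, and whether pumps and channels differ as classes was not tested.

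Callose and secretion in defence had the highest median of the lists with at least 10 tested genes, 3.54, with 19 of 22 higher, 2 lower and 1 not called. These genes drive vesicles and wall material to a site of attack. SYP122 (AT3G52400), a syntaxin of the plasma membrane, had 789.6, 941.4 and 715.6 CPM in ozone libraries against 3.44, 2.55 and 4.38 CPM in controls (log2 fold change 7.90, SE 0.27, adjusted p = 7.9e-13). Its partner syntaxin SYP121 (AT3G11820) had 505.7, 580.1 and 504.2 CPM against 17.7, 16.7 and 23.4 CPM in controls. SNAP33 (AT5G61210), which joins both in membrane fusion and overlaps another gene, rose by 4.21, and EXO70B1 (AT5G58430), a subunit of the exocyst, by 3.35. In all 4 the ozone and control values did not overlap. The list held 1.37%, 1.37% and 1.4% of all counts in ozone libraries, against 0.104%, 0.0944% and 0.130% in controls. PMR5 and PMR6, wall genes whose loss gives resistance to mildew, fell by 0.80 and 0.76.

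Ubiquitin ligases of stress were higher in 25 of 32 tested, lower in 2 and not called in 5, with a median of 1.86. PUB23 (AT2G35930) and PUB24 (AT3G11840), which dampen pattern-triggered immunity, rose by 5.73 (SE 0.23) and 5.80 (SE 0.27). PUB23 had 202.8, 206.3 and 169.7 CPM in ozone libraries against 3.82, 3.49 and 3.61 CPM in controls. ATL6 and CNI1, RING ligases of the balance of carbon and nitrogen, rose by 4.29 and 6.28, while BRG3 and PUB25 fell by 0.68 and 1.21.

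Of 31 genes of folding in the endoplasmic reticulum and the unfolded protein response, 24 were higher, 1 lower and 6 not called, with a median of 1.12. BZIP60 (AT1G42990), the transcription factor at the centre of this response, had 424.1, 568.0 and 473.6 CPM in ozone libraries against 16.6, 15.9 and 18.5 CPM in controls (log2 fold change 4.85, SE 0.20, adjusted p = 2.3e-12). IRE1A (AT2G17520), whose enzyme splices the BZIP60 message, had 165.5, 163.2 and 170.3 CPM against 26.9, 25.3 and 29.6 CPM in controls. The membrane-tethered factors BZIP28 and NAC062 rose by 3.18 and 4.83. The member called lower was NAC089, at -0.66 (adjusted p = 0.040). That call was lost without control replicate 1, 2 or 3 or ozone replicate 2 or 3, which leaves 0 lower. It was also lost with DESeq2 size factors, with replicate number as a block and when tested against a 1.5-fold change. The list held 0.603%, 0.578% and 0.549% of counts in ozone libraries, against 0.205%, 0.224% and 0.230% in controls.

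Of 43 proteasome genes, 21 were higher, 1 lower and 21 not called, but the changes were small, with a median of 0.25 and 1 gene higher at least 2-fold. That gene, RPT3 (AT5G58290), an ATPase of the cap, had 164.3, 154.9 and 152.8 CPM in ozone libraries against 67.9, 68.2 and 69.7 CPM in controls. Without control replicate 2, 2 genes of this list were lower, and with replicate number as a block 3 were. Autophagy genes were higher in 17 of 27 tested, lower in 2 and not called in 8, with a median of 0.63. NBR1 (AT4G24690), the receptor that brings aggregates to the autophagosome, had 546.9, 514.8 and 662.2 CPM in ozone libraries against 146.3, 117.1 and 122.1 CPM in controls. ATG8H (AT3G06420), of the family that coats the autophagosome, had 35.2, 30.1 and 34.7 CPM against 3.44, 2.91 and 3.26 CPM in controls. ATG8F of the same family was at -0.48 (adjusted p = 0.021), a call lost without control replicate 1 (-0.34), ozone replicate 2 (-0.44) or ozone replicate 3 (-0.44), which leaves 1 lower.

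Genes of the cytosolic ribosome and nucleolus, which make the cell's proteins, were higher in 1 of 25 tested, lower in 11 and not called in 13, with a median of -0.32. The count of lower genes is unsteady, at 17 without control replicate 1, 6 without control replicate 3, and 7 without ozone replicate 1 or 3. It was 18 with replicate number as a block and 1 when tested against a 1.5-fold change. SAG24 (AT1G66580), a gene of the large subunit tied to senescence, rose against the others, with 424.1, 431.9 and 483.6 CPM in ozone libraries against 124.4, 147.9 and 154.4 CPM in controls.

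Detoxification genes were mixed in direction. Of 35 transporters and reductases, 19 were higher, 9 lower and 7 not called, with a median of 0.51, and the list held 1.52%, 1.35% and 1.55% of counts in ozone libraries, against 0.222%, 0.211% and 0.227% in controls. Most of that gain came from PEN3 and ABCG40, described above, and from OPR1 (AT1G76680), a reductase of reactive carbonyls, which had 1552, 1490 and 1621 CPM in ozone libraries against 60.9, 51.3 and 70.3 CPM in controls. AOR (AT1G23740), an alkenal reductase of the chloroplast that overlaps another gene, fell, with 101.4, 120.2 and 95.1 CPM in ozone libraries against 416.1, 380.4 and 371.2 CPM in controls. The transporter ABCC14 fell by 2.55. Glycosyltransferases, which add sugars to hormones and foreign compounds, were higher in 14 of 32 tested, lower in 9 and not called in 9, with a median of 0.57. UGT73B5 (AT2G15480) had 458.6, 451.0 and 476.2 CPM in ozone libraries against 2.1, 1.56 and 1.32 CPM in controls, and UGT73B2, UGT73B3 and UGT73B4 rose by 4.21, 5.59 and 9.03. UGT73B3, UGT73B4 and UGT73B5 overlap other genes and the UGT73B genes resemble each other, so reads may be shared. UGT78D1, which acts on flavonols, fell by 1.92.

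Nuclear genes that respond to trouble in mitochondria were higher in 21 of 24 tested, lower in 1 and not called in 2, with a median of 2.37. HSFA2 (AT2G26150), a heat shock factor, had 274.0, 298.6 and 351.4 CPM in ozone libraries against 2.29, 3.09 and 1.93 CPM in controls (log2 fold change 6.95, SE 0.20, adjusted p = 2.4e-13). UCP5 (AT2G22500), a carrier of the inner membrane, had 282.8, 325.8 and 268.1 CPM against 12.1, 8.19 and 16 CPM in controls, and the factor NAC053 rose by 4.67. NDA1, an alternative NADH dehydrogenase, was the member called lower, at -0.91.

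Membrane lipid enzymes rose more often than they fell. Of 31 phospholipase and oxylipin genes, 21 were higher, 6 lower and 4 not called, with a median of 1.16. PLDGAMMA1 (AT4G11850), a phospholipase D, had 539.3, 525.4 and 482.2 CPM in ozone libraries against 28.5, 18.8 and 30.1 CPM in controls, and its neighbour PLDGAMMA3 rose by 3.01. HPL1 (AT4G15440), the lyase that makes green leaf volatiles from the same hydroperoxides as jasmonate, fell, with 7.07, 15.7 and 5.93 CPM in ozone libraries against 211.2, 224.5 and 128.6 CPM in controls. In the peroxisome list, with 11 higher, 13 lower and 10 not called of 34, the risen members with the smallest p were OPCL1, which activates jasmonate precursors with CoA, and ACX1, which acts in shortening them, at 2.60 and 2.79. KAT5, a thiolase gene that overlaps another, fell by 2.33.

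Nuclear genes of photosynthesis and photorespiration fell together. The 279 organelle genes listed had 0 counts over all libraries, so genes of the plastid genome were not measured. All 19 tested genes of photorespiration, which recycles the product of Rubisco's reaction with oxygen, were lower, with a median of -1.16. Of 20 Calvin cycle genes, 19 were lower and 1 higher, with a median of -1.21. PRK (AT1G32060), the phosphoribulokinase of this cycle, had 434.8, 441.7 and 463.9 CPM in ozone libraries against 2004, 1760 and 1741 CPM in controls (log2 fold change -2.04, SE 0.17, adjusted p = 1.4e-08). HPR (AT1G68010), the hydroxypyruvate reductase of photorespiration, had 193.0, 193.0 and 213.6 CPM against 907.8, 746.0 and 657.3 CPM in controls. The Calvin cycle list fell to 2.47%, 2.96% and 2.61% of counts in ozone libraries, against 6.91%, 7.15% and 6.83% in controls. CP12-3, a regulator at low level, rose, with 9.34, 6.38 and 7.58 CPM in ozone libraries against 3.95, 2.91 and 2.7 CPM in controls.

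Pigment synthesis went the same way. Of 21 chlorophyll synthesis genes, 18 were lower, 2 higher and 1 not called, with a median of -1.12. GUN4 (AT3G59400), which helps the enzyme that commits porphyrin to chlorophyll, had 30.2, 30 and 31.2 CPM in ozone libraries against 265.1, 226.2 and 242.4 CPM in controls, a change of -3.00 (SE 0.22, adjusted p = 1.9e-09). CAO, which makes chlorophyll b, fell by 2.15. The 2 genes that rose, GSA1 and HEMB1, both at 0.57, act at the start of the pathway, shared with haem. Carotenoid, tocopherol and photoprotection genes were lower in 23 of 28 tested and not called in 5, with a median of -1.03, although 1 was called higher without control replicate 2. LYC, ZDS and APG1, which overlap other genes, and VTE1, the tocopherol cyclase, changed by -2.09, -1.16, -1.13 and -1.37. Chlorophyll breakdown did not take the opposite course as a list, with 7 of 11 lower, 1 higher and 3 not called. The member that rose was NYE1 (AT4G22920), which removes magnesium from chlorophyll, with 64.2, 57.1 and 45.3 CPM in ozone libraries against 30.9, 26.1 and 26.1 CPM in controls. CLH2, a chlorophyllase, fell by 2.13. Of 44 other nuclear genes of plastid import, translation and regulation, 40 were lower, with a median of -0.79. ERD1 (AT5G51070), a protease regulator of the plastid, was the only member that rose, with 2199, 2272 and 2283 CPM in ozone libraries against 150.6, 100.4 and 125.5 CPM in controls.

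**Figure D4:**
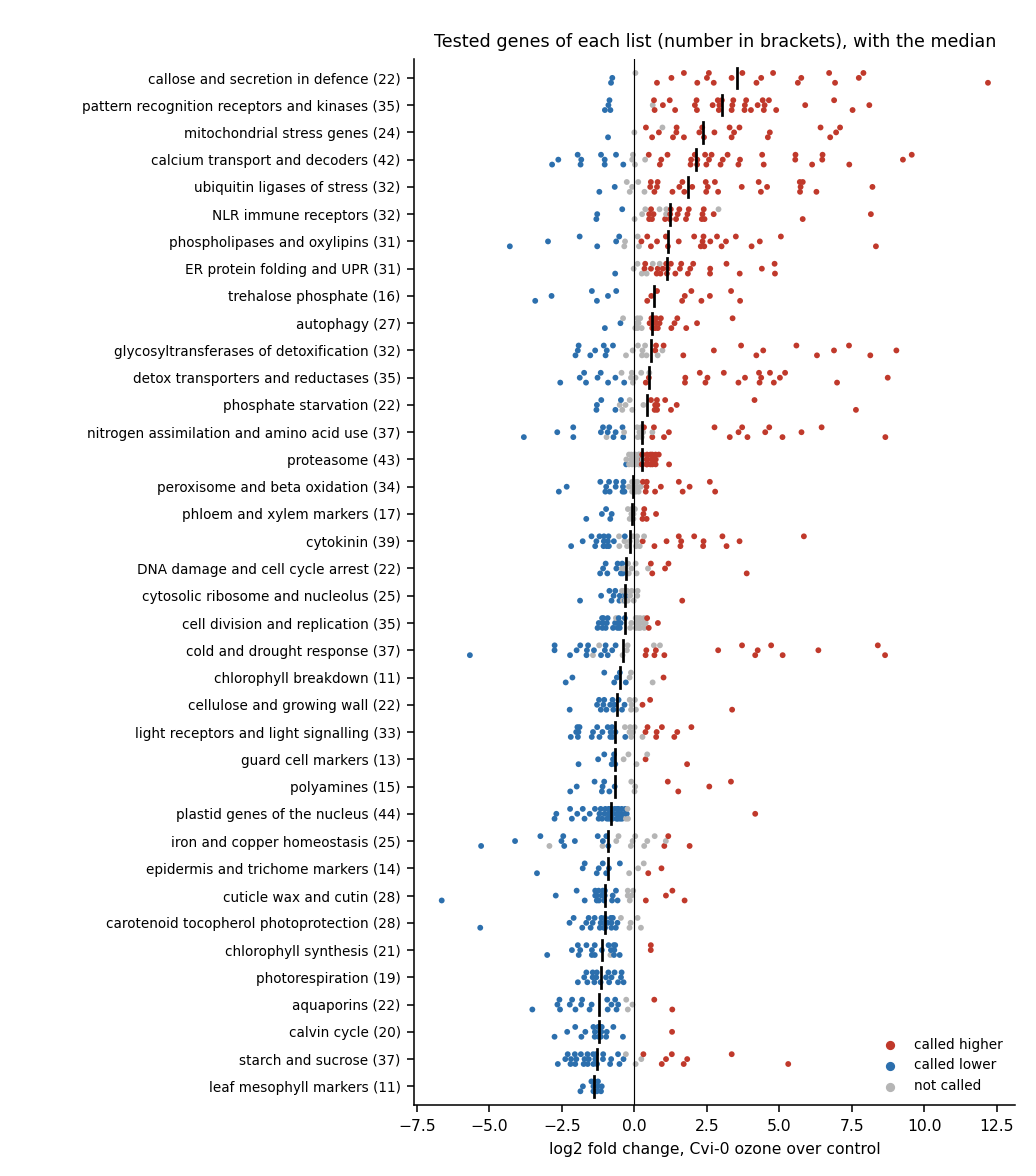
Log2 fold change of Cvi-0 ozone over control libraries (x axis, log2 scale) of each tested gene in the lists with at least 10 tested genes (y axis, number in brackets), with 1 point per gene and a black line at the median. Medians run from 3.54 for callose and secretion to -1.38 for leaf mesophyll markers.

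Genes of starch mostly fell, while some of sugar import and cleavage rose. Of 37 starch and sucrose genes, 26 were lower, 8 higher and 3 not called, with a median of -1.29. The starch synthase SS2 (AT3G01180) had 26.4, 24.1 and 29.6 CPM in ozone libraries against 132.5, 114.9 and 116.3 CPM in controls, and the branching enzyme SBE2.2 fell by 1.41. MSS1 (AT5G26340), a hexose importer of the plasma membrane, rose, with 283.5, 244.5 and 288.1 CPM in ozone libraries against 7.58, 4.66 and 8.6 CPM in controls. The cell wall invertase ATBFRUCT1 rose by 3.36. All 16 tested trehalose phosphate genes, which report sugar status, were called, 10 higher and 6 lower. TPPD and TPPJ rose by 3.65 and 3.33, while TPS5 and TPPE fell by 3.42 and 2.85. TPS5 (AT4G17770) had 5.76, 6.32 and 6.13 CPM in ozone libraries against 69.6, 60.7 and 64.3 CPM in controls.

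Nitrogen and amino acid genes were mixed, with 16 of 37 higher, 12 lower and 9 not called. Glutamate decarboxylases, which make GABA and are switched on by calmodulin, moved apart. GAD4 (AT2G02010) had 1508, 1500 and 1762 CPM in ozone libraries against 3.63, 4.15 and 4.02 CPM in controls (log2 fold change 8.65, SE 0.44, adjusted p = 2.3e-11). GAD rose by 4.65, and GAD2, which overlaps its neighbour, fell by 1.08. The iron and copper list had 3 higher, 11 lower and 11 not called of 25. FRO6, next to FRO7 on chromosome 5, fell with it, at -4.11, and YSL3, a carrier of metal complexes, rose by 1.91.

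Surface and growth genes were more often lower than higher. Of 28 cuticle genes, 19 were lower, 4 higher and 5 not called, with a median of -1.02. CYP86A8, GPAT4 and KCS10, enzymes of cutin and wax, fell by 1.35, 1.23 and 1.09, and KCS20, which lengthens fatty acids, rose by 1.73. Of 22 cellulose and growing wall genes, 14 were lower, 3 higher and 5 not called. CESA1 (AT4G32410), a subunit of the cellulose synthase of growing cells, had 135.0, 127.8 and 136.4 CPM in ozone libraries against 300.6, 294.6 and 294.4 CPM in controls, and CESA5 fell by 2.23. XT1 (AT3G62720), a xylosyltransferase of xyloglucan, rose by 3.37. Only 1 gene of this list was called higher without control replicate 1, ozone replicate 1 or ozone replicate 2. Cell division genes were lower in 17 of 35 tested, higher in 3 and not called in 15, with a median of -0.33, and 1 was higher without control replicate 1. The replication licensing genes MCM2, MCM3 and MCM4 fell by 1.1, 1.27 and 1.08. In the DNA damage list, with 5 higher, 9 lower and 8 not called of 22, SOG1, the master regulator of the plant's damage response, rose by 1.06, and ATM, a kinase that activates it and overlaps another gene, fell by 0.93.

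Water channels fell in 17 of 22 tested, with 2 higher, 3 not called and a median of -1.2. PIP2B (AT2G37170), an aquaporin of the plasma membrane, had 32.9, 29.7 and 26.7 CPM in ozone libraries against 190.1, 195.8 and 176.0 CPM in controls, and TIP2;2, of the vacuole, fell by 3.52. The list held 0.216%, 0.200% and 0.210% of counts in ozone libraries, against 0.795%, 0.799% and 0.742% in controls. Cold and drought genes had no common direction, with 14 higher, 16 lower and 7 not called of 37. DREB2A (AT5G05410), a factor of drought and heat responses, had 211.1, 171.6 and 317.5 CPM in ozone libraries against 0.700, 0.582 and 0.814 CPM in controls.

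Cytokinin genes had 13 higher, 15 lower and 11 not called of 39, near the shares of all tested genes (34.5% higher and 36.1% lower). RR5 (AT3G48100), a response regulator that reports cytokinin signalling, had 62.5, 85.8 and 80.8 CPM in ozone libraries against 9.29, 7.64 and 8.45 CPM in controls (log2 fold change 3.18, SE 0.15, adjusted p = 1.2e-11). Light receptors and light signalling genes were lower in 18 of 33 tested, higher in 8 and not called in 7. PHYB (AT2G18790), the main red light receptor, had 28.7, 22.4 and 25.1 CPM in ozone libraries against 72.5, 63.3 and 68.8 CPM in controls, and the blue light receptor PHOT2, which overlaps another gene, fell by 1.95. Of 22 phosphate starvation genes, 11 were higher, 5 lower and 6 not called, and 3 were lower without control replicate 1. PHT3;2 (AT3G48850), a mitochondrial phosphate carrier, had 90.1, 81.4 and 62.3 CPM in ozone libraries against 0.446, 0.255 and 0.509 CPM in controls. The polyamine list had 4 higher, 8 lower and 3 not called of 15, with ADC1, the arginine decarboxylase, at 1.15.

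Markers of cell types describe what the rosettes held. All 11 leaf mesophyll markers were lower, with a median of -1.38, and took 2.84%, 3.33% and 2.85% of counts in ozone libraries, against 8.79%, 8.37% and 8.10% in controls. They are photosynthesis genes themselves. Of 13 guard cell markers, 2 were higher, 7 lower and 4 not called, and their share of counts overlapped, at 0.303%, 0.270% and 0.316% in ozone libraries and 0.319%, 0.305% and 0.305% in controls. Among them KAT2, a potassium channel, rose by 1.82, and ALMT12, an anion channel, fell by 1.92. Epidermis and trichome markers had 2 higher, 9 lower and 3 not called of 14, with TTG1 at 0.94 and PDF2 at -1.23. Only 1 was higher without control replicate 1 or 3 or without ozone replicate 1 or 2. Of 17 vascular markers, 5 were higher, 5 lower and 7 not called, and 3 were higher without control replicate 1, control replicate 3 or ozone replicate 2. The part of a change in cell types in the results above was not tested. Shoot meristem markers took 0.00325% to 0.00402% of counts in ozone libraries and 0.00634% to 0.00815% in controls, with 1 of 5 tested genes lower. Root markers took 0.00243% to 0.00250% and 0.00470% to 0.00514%, and 6 of 16 matched had no count in the 6 libraries. Flower markers were at or under 0.000496% of counts in ozone libraries and 0.000474% in controls, and seed markers at or under 0.000181% and 0.0000267%, with 7 of 14 matched at 0. In each of these 4 lists the shares were far below those of the leaf lists. Of 5 root markers tested, 3 were lower, all at least 2-fold, 1 was higher and 1 was not called. Against the direction of that list, MYB36, a factor of the endodermis, had 107 counts over the ozone libraries and 3 over the controls.

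The 5 most abundant genes that were not called include 2 myrosinases. TGG1 (AT5G26000), the myrosinase that breaks down glucosinolates, had 3001, 2729 and 3072 CPM in ozone libraries and 2930, 2722 and 2705 CPM in controls (log2 fold change 0.07, SE 0.13, adjusted p = 0.61). TGG2, AT5G60390, LOS1 and AAC1, a second myrosinase, elongation factors of translation and a nucleotide carrier of mitochondria, were at -0.04, -0.27, -0.07 and 0.28. The calls of AAC1 and AT5G60390 depended on the setting. In edgeR's quasi-likelihood test AAC1 was not called (adjusted p = 0.051). It was called higher with DESeq2 size factors, with a filter of 1 CPM in 3 libraries, with the replicate block, with the 6 Cvi-0 libraries alone, with the 100 most abundant genes left out of the scaling, without control replicate 3 and by the DESeq2 Wald test, at 0.28 to 0.35. AT5G60390 was called lower with the replicate block (-0.26, adjusted p = 0.014) and without control replicate 1 (-0.39, adjusted p = 0.040), both by the same test. MPK12, a kinase of guard cells tied to ozone sensitivity in Cvi-0, had 16.2, 13.7 and 17.3 CPM in ozone libraries and 16, 15.3 and 14.4 CPM in controls, a change of 0.05 (SE 0.12, adjusted p = 0.74). A p above the threshold does not show that these genes held still.

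To see where Cvi-0 differs, the response of each gene was set against that of Col-0 and of Col-S in a test of the difference of the log2 fold changes. The 2 contrasts share the Cvi-0 libraries. Cvi-0 minus Col-0 gave 2288 genes higher (11.1%) and 2115 lower (10.3%), and Cvi-0 minus Col-S gave 454 higher (2.20%) and 549 lower (2.66%). Differences of at least 2-fold were 1411 higher (6.84%) and 781 lower (3.79%) from Col-0, and 298 higher (1.45%) and 354 lower (1.72%) from Col-S. Called in either direction were 21.4% and 4.86% of genes. The share of genes called for ozone itself was 70.6% in Cvi-0, 68.3% in Col-S and 57.3% in Col-0, and the share that fell at least 2-fold was 16.9%, 13.5% and 8.53%. Against Col-0, lower differences were gathered in lists of photosynthesis, photorespiration, pigments, and starch and sucrose. They were called in 18 of 20 Calvin cycle genes, 10 of 19 of photorespiration, 13 of 28 of carotenoid and tocopherol synthesis, 8 of 21 of chlorophyll synthesis and 13 of 37 of starch and sucrose, with no higher call in the first 4. Median log2 fold changes in these lists were -1.21 in Cvi-0 and -0.48 in Col-0 for the Calvin cycle, and -1.16 and -0.41 for photorespiration. Against Col-S none of these 5 lists had a lower call, and the Calvin cycle median of Col-S was -0.96. PRK had log2 fold changes of -2.04 in Cvi-0 and -1.03 in Col-0, a difference of -1.01 (SE 0.24, adjusted p = 0.0060). The PRK difference kept its call in all alternatives described below. That of GAPA (AT3G26650), another Calvin cycle gene, was lost in 8 of them, and was nearest 0, at -0.44, without Col-0 ozone replicate 2. Without that library, 584 genes had a lower difference of at least 2-fold from Col-0, against 781. The counts of differences per list were not repeated in the alternatives.

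Among lists of at least 10 tested genes, the highest shares of higher differences against Col-0, beside 11.1% of all genes, were 10 of 22 callose and secretion genes, 6 of 16 trehalose phosphate genes, 12 of 32 stress ubiquitin ligases, 8 of 24 mitochondrial stress genes, 10 of 31 phospholipase and oxylipin genes and 11 of 42 calcium genes. The same lists had 0, 3, 1, 1, 5 and 5 lower. Against Col-S they had 1, 2, 0, 2, 4 and 0 higher and 0, 0, 0, 1, 4 and 3 lower. SYP122 changed by 7.90 in Cvi-0 and 5.78 in Col-0, a difference of 2.12 (SE 0.30, adjusted p = 0.00014), and BZIP60 by 4.85 and 3.28, a difference of 1.56 (SE 0.24, adjusted p = 0.00029). RR5 changed by 3.18 in Cvi-0 and 0.49 in Col-0, a difference of 2.69 (SE 0.21, adjusted p = 4.4e-07). DREB2A changed by 8.39 in Cvi-0 and 3.23 in Col-0, a difference of 5.17 (SE 0.88, adjusted p = 0.00065). Its level after ozone in Col-S was 154 ± 117 CPM (SD, n = 3), and its difference from Col-S was 1.16 (adjusted p = 0.52). The detoxification lists had more lower than higher differences, at 9 against 5 among 32 glycosyltransferases and 9 against 3 among 35 transporters and reductases. Over all genes 10.3% were lower and 11.1% higher, so higher differences were not scarce among the glycosyltransferases. The glycosyltransferase median was 0.57 in Cvi-0, against 1.56 in Col-0, but the median of the differences gene by gene was -0.52. For the transporters and reductases the list medians were 0.51 and 1.58, and the median difference was -0.21. List medians can thus lie further apart than the genes do. In the mitochondrial stress list they were 2.37 in Cvi-0 and 2.78 in Col-0, although the median difference was 0.2. Against Col-S, 5 glycosyltransferases were lower and 1 higher. Of the transporters and reductases, 1 was lower and 2 were higher against Col-S.

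**Figure D5:**
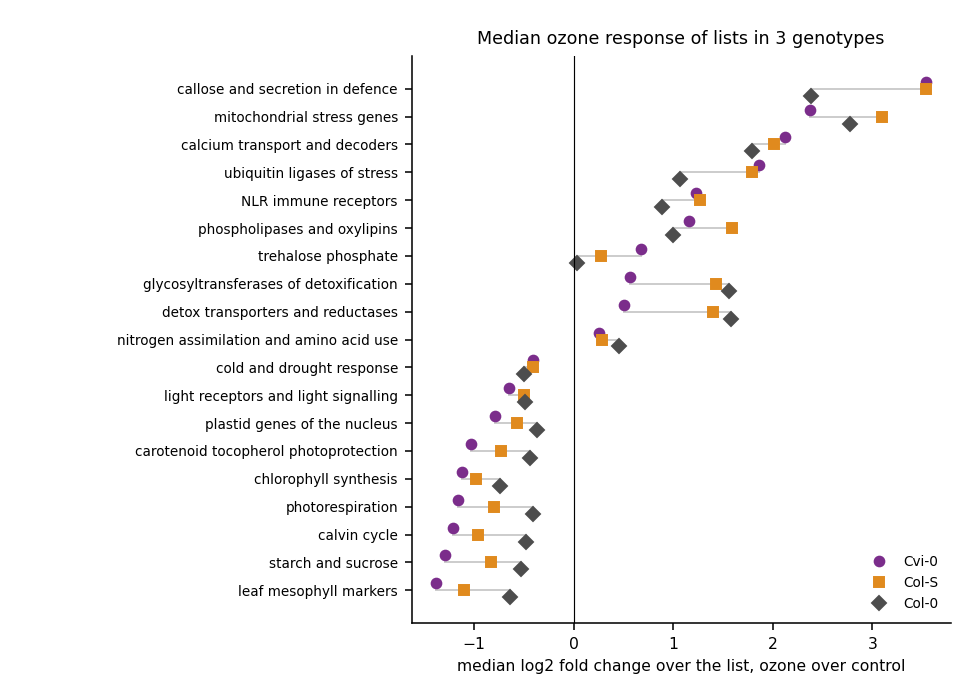
Median log2 fold change of ozone over control (x axis, log2 scale) in Cvi-0, Col-S and Col-0 for the lists with at least 8 called differences between Cvi-0 and Col-0 and at least 10 tested genes (y axis). The Calvin cycle is at -1.21, -0.96 and -0.48, and detoxification transporters and reductases are at 0.51, 1.4 and 1.58. In the latter list the median of the differences from Col-0 gene by gene was -0.21, so list medians can lie further apart than the genes do.

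Some genes differed from both other genotypes, among them immune receptors, which went in both directions. Of the 32 NLR genes, 5 had a higher and 6 a lower difference from Col-S, with a median difference of -0.18. From Col-0, 6 were higher and 4 lower, with a median of 0.02. Over all genes the shares were 2.20% and 2.66% from Col-S, and 11.1% and 10.3% from Col-0. CRK7, of the same family as CRK22, differed by -3.86 from Col-S. CRK22 (AT4G23300, chromosome 4, 12181932 to 12184704), a cysteine-rich receptor-like kinase, had 326.7, 283.4 and 270.8 CPM in Cvi-0 ozone libraries against 8.34, 8.59 and 8.35 CPM in Cvi-0 controls. In Col-S it averaged 61.2 ± 3.5 CPM after ozone and 29.8 ± 2.9 CPM in controls, and in Col-0 36 ± 0.84 and 33.1 ± 3.2 CPM (SD, n = 3 each). The differences were 5.0 from Col-0 (SE 0.15, adjusted p = 2.0e-12) and 4.08 from Col-S (SE 0.15, adjusted p = 4.5e-11). WRR4, at 5.80 in Cvi-0, changed by 2.89 in Col-S and 1.71 in Col-0, with differences of 2.91 (adjusted p = 1.5e-06) and 4.09 (adjusted p = 3.7e-08). RPP1 differed by 1.52 and 2.12, and RLM3 by -1.35 and -1.66, in that order of genotypes. CRK22 and WRR4 were lower in Cvi-0 controls and higher in Cvi-0 ozone libraries than in the same groups of the other genotypes. Cvi-0 reads were counted on the Col-0 genome, so that reads of a diverged gene can be lost in both Cvi-0 groups, and the part of this in the levels was not tested.

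Outside the receptors, NBR1 changed by 2.16 in Cvi-0, 0.86 in Col-S and 0.35 in Col-0, with differences of 1.31 (adjusted p = 0.00018) and 1.81 (adjusted p = 4.2e-06). SOT12 (AT2G03760), a sulfotransferase, changed by 3.44 in Cvi-0, 1.17 in Col-S and 0.97 in Col-0, with differences of 2.27 (adjusted p = 5.5e-07) and 2.47 (adjusted p = 1.2e-07). TPPD, PLDGAMMA3 and EXO70B1 also rose more in Cvi-0 than in both, by 1.87, 1.1 and 0.75 against Col-S and by 2.83, 1.58 and 1.24 against Col-0. HPL1 fell more, by 2.44 on the log2 scale against Col-S and by 3.56 against Col-0. It was abundant in Cvi-0 controls, at 188 ± 52 CPM, against 9.19 ± 1.8 CPM in Col-S controls and 8.4 ± 2.1 CPM in Col-0 controls (SD, n = 3 each). P5CR (AT5G14800), the last enzyme of proline synthesis, had 9.63, 12.0 and 10.9 CPM in Cvi-0 ozone libraries against 25, 23.3 and 24 CPM in Cvi-0 controls. It differed by -1.02 from Col-S (adjusted p = 0.0016) and by -1.07 from Col-0 (adjusted p = 0.00038).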

How the data were processed

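The authors deposited raw read counts per gene for each library. Per the labels' protocols, RNA of pooled rosettes was made into TruSeq libraries. Per the submitters' processing notes, the tools were HTSeq, SAMtools, TopHat2 and FastQC, on the TAIR10 genome. The sources used here state no versions, strand setting or treatment of reads shared between genes. The strand setting matters for the 3223 tested genes that overlap another. Reads of Cvi-0 were counted on a Col-0 reference, which can lower counts of diverged genes.

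From the counts, 1 model was fitted to all 18 libraries with edgeR 4.0.16 in R 4.3.3 (filterByExpr, TMM, quasi-likelihood test of group means, Benjamini-Hochberg adjustment over 20622 genes, threshold 0.05). SE is the log2 fold change divided by the square root of its F. Differences between genotypes were contrasts of that model. DESeq2 1.42.0 was an alternative. With 14905841 to 26171613 counts per Cvi-0 library, 3 counts are 0.115 to 0.201 CPM. Intervals and floors cover counting error only. Promoters came from RefSeq TAIR10.1 and were read with Python 3.11.15.

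Genes were named by rule: the 10 largest gains and losses in mean CPM; the 8 highest and 8 lowest fold changes among called genes whose groups did not overlap and whose average log2 CPM was 3 or more; in each list, up to 4 called members with the smallest p and up to 2 against the majority; the 6 highest and 6 lowest differences from each genotype; the 5 most abundant genes not called; and MPK12. Genes at or near 0, in runs of neighbours or shown for a motif were added after their values were seen. The members, lists and rules were chosen with earlier results of these data known. Of 1170 list entries, 28 were unmatched or ambiguous. The alternatives were other scaling, filters, tests, samples and single libraries left out.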

Additional observations from a re-analysis of the deposited data

Results flagged for a closer look

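The ozone response of Cvi-0 differed from that of the other genotypes by the test of the difference itself. Cvi-0 minus Col-0 gave 2288 genes higher and 2115 lower, and Cvi-0 minus Col-S gave 454 higher and 549 lower. Of 247 genes named by rule, 142 had a called difference from Col-0 and 34 from Col-S, beside 21.4% and 4.86% of all tested genes. Some were named because that difference was called, and most others for a small p or a large change. These counts of named genes are therefore a description only. All values below are differences of log2 fold changes, and both contrasts use the same Cvi-0 libraries.

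The highest differences from Col-0 were 9.65 in AT3G61390, a RING/U-box gene, 9.41 in AT1G13480, 8.88 in AT5G19880, a peroxidase gene, 7.96 in AT3G46080, 7.66 in AT1G53540 and 7.25 in RLP43, a receptor-like protein gene that overlaps another. Such values rest on groups with few or no counts and depend on a small prior count. The lowest were -4.90 in AT1G58590, annotated as other RNA and with very few counts in Cvi-0, -4.47 in AT1G59950, an oxidoreductase gene, -3.86 in DES1, -3.82 in TBL26, a wall acetylation-type gene, -3.58 in CYP706A6 and -3.56 in HPL1. Without Col-0 control replicate 2 the calls of AT1G13480 (8.67, adjusted p = 0.14 in edgeR's quasi-likelihood test) and AT1G53540 (4.77, adjusted p = 0.35) were lost. With single libraries left out the differences ran from -6.30 to -4.05 in AT1G59950, from -4.26 to -3.27 in DES1, from -4.26 to -2.43 in TBL26 and from -3.97 to -2.65 in CYP706A6, all still called. The value nearest 0 came without Col-0 ozone replicate 1 in AT1G59950 and without Col-0 ozone replicate 2 in the others, and the lowest of AT1G59950 came without Col-0 control replicate 2.

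The highest differences from Col-S were 6.85 in RLP43, 4.28 in AT1G54050, a small heat shock gene, 4.08 in CRK22, 4.08 in RLP53, 4.03 in AT3G27860, a Tudor-type gene, and 3.97 in CYP76C5, a cytochrome P450. The lowest were -5.05 in AT1G58590, -4.51 in AGP2, an arabinogalactan protein gene, -3.94 in AAC3, -3.86 in CRK7, -3.45 in UGT71B6 and -3.44 in AT3G22235. AAC3 and UGT71B6 overlap other genes. AAC3, a nucleotide carrier gene, had log2 fold changes of -1.42 in Cvi-0, 2.52 in Col-S and 2.05 in Col-0. UGT71B6 was not called without Cvi-0 control replicate 1 or 3, Cvi-0 ozone replicate 1 or 2, Col-S control replicate 1, 2 or 3, or Col-S ozone replicate 1. It was at -2.29 (adjusted p = 0.50) without Cvi-0 control replicate 3.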

How the results depend on the processing

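Leaving out 1 library at a time gave 6748 to 7123 genes higher and 6722 to 7207 lower in Cvi-0, of which 4694 to 4867 and 3263 to 3516 changed at least 2-fold. The same gave 1813 to 2243 higher and 1567 to 2234 lower differences from Col-0 (1153 to 1453 and 584 to 930 at least 2-fold), and 333 to 531 and 372 to 601 from Col-S (239 to 365 and 256 to 386). Same-numbered Cvi-0 ozone and control libraries correlated at 0.20, 0.10 and 0.04 in their deviations, those of Col-S at 0.28, 0.14 and 0.13 and those of Col-0 at 0.24, 0.05 and 0.08. Different-numbered libraries ran from -0.19 to 0.06 in Cvi-0, from -0.17 to 0.01 in Col-S and from -0.24 to 0.17 in Col-0. The same-numbered values were thus all positive, though small. The labels state no pairing, so the main fit used none, and whether the numbers mark a shared batch was not tested. With the replicate block, 7358 genes were higher and 7872 lower in Cvi-0, and lower differences came to 3181 from Col-0 and 879 from Col-S, against 2115 and 549 without it. The test against a 1.5-fold change gave 5160 genes higher, against 7112, and 4269 lower, against 7438. Of the genes it called, 54.7% were higher. With DESeq2 size factors as scaling, 51.4% of called genes were higher, against 48.9%. TGG2 was at 0.02 with DESeq2 size factors, 0.006 with the 6 Cvi-0 libraries alone, 0.009 without control replicate 1 and 0.019 by the DESeq2 Wald test. With 1 library left out it ran from -0.082 to 0.034, and LOS1 from -0.2 to 0.023, neither called. Of 247 named genes, 225 kept their direction and side of the threshold in all alternatives run, and of the called differences 104 of 142 from Col-0 and 27 of 34 from Col-S were never lost. The cause of these changes was not tested. Depth limits genes near 0.115 to 0.201 CPM, and DESeq2 gave no adjusted p for 3702 genes.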
